A study of Mus musculus with 5 samples.

Results

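The genes of glucose transport and the glycolytic isozymes were followed in neonatal hearts with and without the long noncoding RNA Charme. The set holds 10 of the 49671 genes in the deposited counts, chosen by name with earlier results of these data known. They are the glucose transporters Slc2a1 and Slc2a4, the hexokinases Hk1 and Hk2, and the phosphofructokinases Pfkm, Pfkl and Pfkp. The others are the lactate dehydrogenase subunits Ldha and Ldhb and the pyruvate kinase Pkm. All 10 passed the filter on low counts and were among the 14880 genes tested. RNA-seq was performed on polyA RNA from whole hearts of C57BL6/J mice at postnatal day 2, in 3 CharmeWT pools of 9 hearts and 2 CharmeKO pools of 3 hearts. The CharmeKO allele carries a PolyA signal inserted into the Charme locus. Littermate hearts of each genotype were combined before the RNA was extracted, so genotype and the number of hearts in a pool cannot be told apart.

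The heart takes up glucose through GLUT1, encoded by Slc2a1 and most abundant before birth, and through GLUT4, encoded by Slc2a4, which moves to the cell surface in response to insulin and is the main carrier of the adult muscle cell. Inside the cell, hexokinase traps glucose by phosphorylation, phosphofructokinase commits it to glycolysis, pyruvate kinase makes pyruvate, and lactate dehydrogenase interconverts pyruvate and lactate. The fetal heart relies largely on glycolysis and lactate, and after birth it turns to fatty acids, while isozymes of several of these steps are exchanged. In the comparisons below, Slc2a1, Hk1, Pfkl, Pfkp and Ldha were taken as the fetal-type forms, and Slc2a4, Hk2, Pfkm and Ldhb as the adult-type forms. Pkm gives rise by alternative splicing to the M1 and M2 forms of pyruvate kinase, which counts per gene do not separate.

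The pools held 16721055 to 21646378 fragments assigned to genes. Charme had 810, 183 and 276 counts in the CharmeWT pools and 57 and 79 counts in the CharmeKO pools. The heart label held in every pool, since all 7 cardiomyocyte markers were detected, with a summed level of 45000 to 56000 CPM (counts scaled to library size) in CharmeWT and 55200 and 51300 CPM in CharmeKO pools 1 and 2. Of the 7, 0 were called, with 5 higher and 2 lower in CharmeKO. Myh6 stood at 7340 and 12500 CPM in CharmeKO against 14100 to 17200 CPM in CharmeWT. Myh7 stood at 9240 and 8390 CPM against 3480 to 7600 CPM. CharmeKO pool 2 stood apart from the rest: 7 salivary gland markers summed to 24700 CPM (2.55% of its counts), against 325 CPM in CharmeKO pool 1 and at most 0.17 CPM in the CharmeWT pools, so both CharmeKO pools carried them. The 6 adipose markers summed to 1050 CPM in CharmeKO pool 2, against 69.6 CPM in CharmeKO pool 1 and 28.4 to 40.9 CPM in CharmeWT. The 6 markers of proliferating cells reached 1460 and 827 CPM in the CharmeKO pools against 277 to 403 CPM in CharmeWT, and all 6 were called higher. The 7 erythroid markers reached 2280 and 1620 CPM against 869 to 1250 CPM, with 3 of 7 called higher. The 7 skeletal muscle markers reached 4170 and 3740 CPM against 2990 to 3850 CPM, but most of this sum was Ckm (4100 and 3580 CPM against 2950 to 3810 CPM). All 6 skeletal muscle markers tested were higher in CharmeKO, and 2 were called. These were Myh8 (8.07 and 22.5 CPM against 1.70 to 2.53 CPM) and Mylpf (5.88 and 14.1 CPM against 1.16 to 2.54 CPM). The 5 smooth muscle and pericyte markers were at 329 and 315 CPM against 390 to 480 CPM. Of these, 4 were lower in CharmeKO, and the 1 called, Cnn1, was higher (43.2 and 48.8 CPM against 19.1 to 26.0 CPM). The 5 fibroblast markers were at 1510 and 2450 CPM against 1760 to 1930 CPM, with 0 called. The 5 endothelial markers were at 723 and 762 CPM against 730 to 930 CPM, with 0 called. The 5 macrophage markers were at 72.4 and 108 CPM against 53.8 to 83.2 CPM. Of these, 3 were higher and 2 lower in CharmeKO, and the 1 called, Mrc1, was higher (26.5 and 26.1 CPM against 10.4 to 14.3 CPM). The part of any of these in the values of the 10 genes was not tested. Values without 1 or the other CharmeKO pool are given beside the results.

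Levels are given as FPKM, fragments scaled by exon length and library size. In CharmeWT hearts the lactate dehydrogenase subunits led the set, with a mean of 786 FPKM ± 77.8 (SD, n = 3) for Ldhb and 266 ± 45.5 for Ldha. Pkm followed with 212 FPKM ± 34.4 and Pfkm with 151 ± 10.6. The CharmeWT ranges of Ldha and Pkm overlapped, but Ldha was above Pkm within each of the 3 pools. Lower down stood Hk1 with 38.6 FPKM ± 8.14 and Slc2a4 with 29.4 ± 6.36, whose ranges also overlapped, then Pfkl with 18.8 ± 2.27. Within each CharmeWT pool Hk1 was above Slc2a4. The lowest were Hk2 with 10.2 FPKM ± 0.78, Slc2a1 with 8.29 ± 1.5 and Pfkp with 7.11 ± 0.785, and here the ranges of each neighbouring pair overlapped. Hk2 was above Slc2a1 within each CharmeWT pool. Slc2a1 was below Pfkp in CharmeWT pool 1 (7.29 against 7.39 FPKM) and above it in pools 2 and 3. At postnatal day 2 the adult-type form was thus the more abundant in the transporter, phosphofructokinase and lactate dehydrogenase pairs, and the fetal-type Hk1 was the more abundant hexokinase, in each of the 5 pools. These orders depend on the exon length given to a gene. With the shorter GENCODE basic transcript set the mean of Pfkp in CharmeWT was 22.2 FPKM in place of 7.11, which placed it above Hk2 (10.8) and Slc2a1 (8.92), while the more abundant form of each pair was the same.

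Of the 10 genes, Ldha alone was called in CharmeKO hearts, with 0.1 as the limit for the adjusted p and 1 FPKM as the lowest mean allowed for the higher genotype, and it was higher. Among all genes tested 1.53% were called higher and 0.524% lower. Both CharmeKO pools lay above every CharmeWT pool for Ldha, Pkm and Pfkp, 3 of the 10 genes, where 17.8% of all genes tested did so. Pfkm was the 1 gene of 10 with both CharmeKO pools below every CharmeWT pool, a position found in 18.2% of all genes tested. The other 6 overlapped between the genotypes. The fitted log2 fold changes, CharmeKO over CharmeWT, ran from -0.43 to 1.11, with a median of 0.36 over the 10 genes and of 0.02 over all genes tested. For 9 of 10 they were above 0, where 7714 of all 14880 genes tested were above 0 and 7164 below. In these bulk samples, fewer cells of a type and less RNA per cell cannot be told apart.

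**Figure D1:**
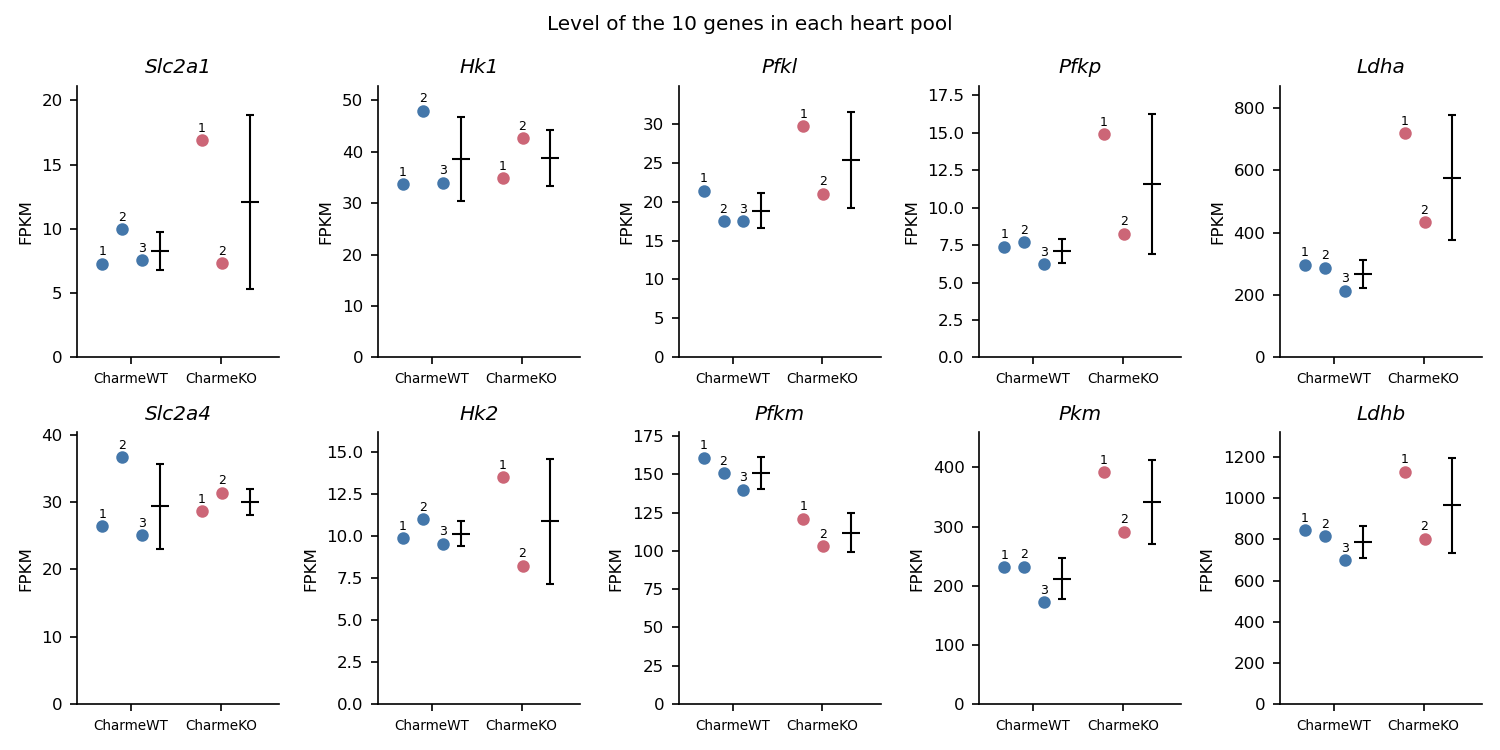
Level of each of the 10 genes in FPKM on the vertical axis, in the 3 CharmeWT pools (blue) and the 2 CharmeKO pools (red), each point 1 pool labelled with its number and each black mark the group mean with its SD. In Ldha, Pkm and Pfkp both red points lie above all blue points and in Pfkm below them, and CharmeKO pool 1 is the highest of all pools in 7 of the 10 genes.

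Lactate dehydrogenase is a tetramer of subunits A and B. The A subunit, encoded by Ldha, favours the making of lactate, and the B subunit, encoded by Ldhb, is typical of the adult heart and its use of lactate as a fuel. Ldha (ENSMUSG00000063229, chromosome 7 from 46841475 to 46855627, plus strand, GRCm38) and Ldhb (ENSMUSG00000030246, chromosome 6 from 142490249 to 142507957, minus strand) are the pair with the called gene, so the 250 bases before their starts are shown. They are from RefSeq on GRCm38.p6 and read 5′ to 3′ along the gene, with each ACGTG, on either strand, in capitals. That motif is the core of the sites bound by hypoxia-inducible factors and also lies inside CACGTG. Both RefSeq starts of Ldha lie inside the gene span given above, whose first base, 46841475, had no window.
Ldha, first start, chr7:46845554-46845803, plus strand: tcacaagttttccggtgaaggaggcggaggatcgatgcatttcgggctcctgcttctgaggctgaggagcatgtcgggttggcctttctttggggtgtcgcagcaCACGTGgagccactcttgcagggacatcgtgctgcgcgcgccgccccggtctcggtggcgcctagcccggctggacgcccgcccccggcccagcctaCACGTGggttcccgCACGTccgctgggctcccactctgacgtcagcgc
Ldha, second start, chr7:46846832-46847081, plus strand: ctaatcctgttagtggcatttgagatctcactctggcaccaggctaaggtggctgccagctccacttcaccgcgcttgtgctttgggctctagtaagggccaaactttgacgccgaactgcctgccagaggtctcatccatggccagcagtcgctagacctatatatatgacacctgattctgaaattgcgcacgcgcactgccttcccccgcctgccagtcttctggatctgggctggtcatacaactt
Ldhb, chr6:142507958-142508207, minus strand: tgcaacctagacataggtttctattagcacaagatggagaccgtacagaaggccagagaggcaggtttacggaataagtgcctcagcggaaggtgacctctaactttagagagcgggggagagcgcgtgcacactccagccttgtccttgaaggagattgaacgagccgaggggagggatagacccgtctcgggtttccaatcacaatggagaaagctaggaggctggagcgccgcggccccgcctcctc
The window before the first Ldha start held 5 matches to ACGTG, 4 of them from 2 copies of CACGTG, and the windows before the second Ldha start and before Ldhb held 0. Among the 32851 promoter windows of this length in the RefSeq table, 16.6% held ACGTG and 6.02% held CACGTG. The table had windows for 9 of the 10 genes, 15 in all. Besides Ldha, ACGTG was found before Slc2a1 (1 match), Hk2 (2), 2 of the 4 Pfkm starts (2 and 1) and 1 of the 2 Pkm starts (1). The 2 matches before a single Pfkm start came from 1 copy of CACGTG, and the 2 before Hk2 were separate. It was not found before Hk1, Pfkl, Pfkp or Ldhb. A match is a string of letters, not an occupied site, and the counts per gene do not show which start was used.

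Ldha was measured at 297, 288 and 214 FPKM in the CharmeWT pools and at 718 and 434 FPKM in CharmeKO pools 1 and 2. Both CharmeKO pools were above the highest CharmeWT pool, and pool 1 was further from it than pool 2. The rise was 2.16-fold, or 1.11 ± 0.265 on the log2 scale (± 1 standard error, as for all fitted fold changes given here), with an adjusted p of 0.0948 in the edgeR quasi-likelihood test. The adjusted p lay close to the threshold of 0.1. The call was lost without CharmeWT pool 1 (adjusted p = 0.238), pool 2 (0.178) or pool 3 (0.447) and without CharmeKO pool 1 (0.137, log2 fold change 0.71) in the same edgeR test, and it was kept without CharmeKO pool 2 (0.00243, 1.42). With all 5 pools, it was also lost under a correction for gene length and GC content (adjusted p = 0.111).

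Ldhb was measured at 845, 815 and 698 FPKM in the CharmeWT pools and at 1130 and 804 FPKM in the CharmeKO pools. CharmeKO pool 1 was the highest and CharmeKO pool 2 fell within the CharmeWT range. The log2 fold change was 0.30 ± 0.23 (adjusted p = 0.495), and it was not called. It was 0.04 without CharmeKO pool 1 and 0.52 without CharmeKO pool 2, where it was called (adjusted p = 0.0901). Ldha therefore made up 26.0%, 26.1% and 23.5% of the summed FPKM of the pair in the CharmeWT pools and 38.8% and 35.1% in the CharmeKO pools. Both CharmeKO pools had a larger Ldha share than any CharmeWT pool. With the exon lengths of the basic transcript set the Ldha shares were 30.8% to 33.9% in CharmeWT and 47.9% and 43.9% in CharmeKO. The log2 ratio of Ldhb over Ldha was 1.57 ± 0.115 (SD, n = 3) in CharmeWT and 0.77 ± 0.165 (SD, n = 2) in CharmeKO, a difference of -0.80, or a ratio 1.74-fold lower. With 3 pools against 2, an exact permutation test over the 10 assignments cannot give a two-sided p below 0.1, and this ratio reached it (exact p = 0.1, 0.2 after Benjamini-Hochberg adjustment over the 4 isozyme ratios). Without CharmeKO pool 1 the difference was -0.68, and without CharmeKO pool 2 it was -0.92. The summed FPKM of Ldha and Ldhb was 1140, 1100 and 912 in the CharmeWT pools and 1850 and 1240 in the CharmeKO pools.

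**Figure D2:**
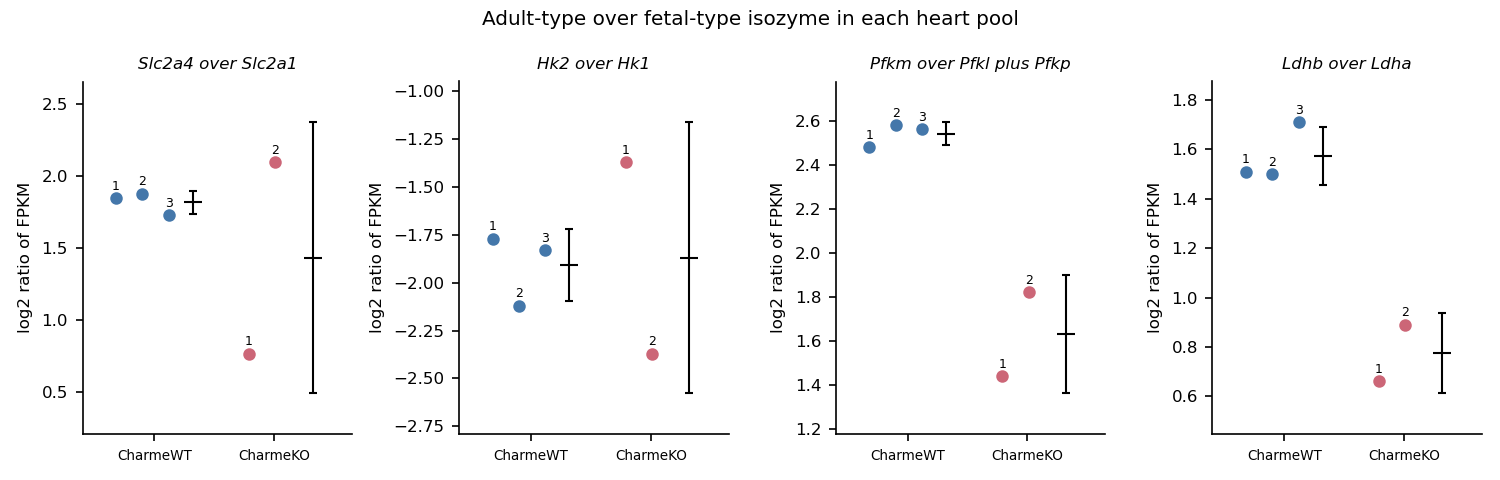
Log2 ratio of adult-type over fetal-type FPKM on the vertical axis for the 4 isozyme pairs, each point 1 pool (blue CharmeWT, red CharmeKO, labelled with the pool number) and each black mark the group mean with its SD. The ratios of Pfkm over Pfkl plus Pfkp and of Ldhb over Ldha are lower in both CharmeKO pools than in any CharmeWT pool, while for the transporters and hexokinases the 2 CharmeKO pools lie on either side of the CharmeWT pools.

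Phosphofructokinase is built from the muscle subunit Pfkm, the liver subunit Pfkl and the platelet subunit Pfkp. Pfkm (ENSMUSG00000033065, chromosome 15 from 98092589 to 98132451, plus strand) was measured at 161, 151 and 140 FPKM in the CharmeWT pools and at 121 and 103 FPKM in the CharmeKO pools. Both CharmeKO pools were below every CharmeWT pool, with a log2 fold change of -0.43 ± 0.184 (adjusted p = 0.254) that was not called. Its exons overlap those of Gm26513 on the same strand, and reads in the overlap were not separated.

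Pfkl (ENSMUSG00000020277, chromosome 10 from 77986947 to 78010083, minus strand) stood at 21.4, 17.5 and 17.5 FPKM in CharmeWT and at 29.7 and 21 FPKM in CharmeKO. CharmeKO pool 2 fell just inside the CharmeWT range, and the log2 fold change of 0.43 ± 0.2 (adjusted p = 0.282) was not called. It was 0.16 without CharmeKO pool 1 and 0.65 without CharmeKO pool 2. Pfkp (ENSMUSG00000021196, chromosome 13 from 6579768 to 6648777, minus strand) stood at 7.39, 7.70 and 6.22 FPKM in CharmeWT and at 14.9 and 8.27 FPKM in CharmeKO. Both CharmeKO pools were above the CharmeWT pools, CharmeKO pool 2 by little, and the log2 fold change of 0.70 ± 0.241 (adjusted p = 0.188) was not called. Without CharmeKO pool 1 it was 0.22, and without CharmeKO pool 2 it was 1.06.

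Pfkl and Pfkp together made up 15.2%, 14.3% and 14.5% of the phosphofructokinase FPKM in the CharmeWT pools and 27.0% and 22.1% in the CharmeKO pools. The share was larger in both CharmeKO pools than in any CharmeWT pool, and the CharmeWT pools differed from each other by less than 1 percentage point. The log2 ratio of Pfkm over the other 2 subunits was 2.54 ± 0.0516 (SD, n = 3) in CharmeWT and 1.63 ± 0.269 (SD, n = 2) in CharmeKO, a difference of -0.92, or 1.89-fold lower (exact p = 0.1, 0.2 after adjustment over the 4 ratios). It was -0.73 without CharmeKO pool 1 and -1.11 without CharmeKO pool 2. With the exon lengths of the basic transcript set the shares of Pfkl and Pfkp were 24.5% to 25.5% in CharmeWT and 42.6% and 35.6% in CharmeKO, and the difference was -0.95. The summed FPKM of the 3 subunits was 190, 176 and 164 in the CharmeWT pools and 165 and 133 in the CharmeKO pools, so their total overlapped between the genotypes.

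Pkm (ENSMUSG00000032294, chromosome 9 from 59656368 to 59679375, plus strand) was measured at 231, 232 and 172 FPKM in the CharmeWT pools and at 392 and 291 FPKM in the CharmeKO pools. Both CharmeKO pools were above every CharmeWT pool. The log2 fold change of 0.69 ± 0.236 (adjusted p = 0.188), or 1.61-fold, was not called in the quasi-likelihood test. It was 0.46 without CharmeKO pool 1 and 0.88 without CharmeKO pool 2. Pkm was called with Ldha by the edgeR likelihood ratio test (adjusted p = 0.0948), in which 3.92% of all genes tested were called higher. DESeq2 called Pkm (adjusted p = 0.0486), Pfkp (0.0937) and Ldha (0.00132), with 4.33% of all genes called higher. Exons of Pkm overlap those of Gm49759 on the same strand, and reads in the overlap were not separated. Of 4 splicing factors known to act on the choice between the Pkm forms, 0 were called in the quasi-likelihood test with all pools. All 4 had a log2 fold change above 0. Both CharmeKO pools were above every CharmeWT pool for 2 of the 4, against 17.8% of all genes tested. Hnrnpa1, the most abundant, stood at 97.4 to 115 FPKM in CharmeWT and at 174 and 115 FPKM in CharmeKO (log2 fold change 0.45, adjusted p = 0.289). The fold change was 0.12 without CharmeKO pool 1 and 0.71 without CharmeKO pool 2, where it was called (adjusted p = 0.0155). Srsf3 had the lowest p of the 4, with a log2 fold change of 0.64 (adjusted p = 0.149). It was called without CharmeKO pool 2 (0.82, adjusted p = 0.00796), by DESeq2 (0.0507) and by the likelihood ratio test (0.0784).

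Slc2a1 (ENSMUSG00000028645, chromosome 4 from 119108711 to 119137983, plus strand) was measured at 7.29, 10 and 7.55 FPKM in the CharmeWT pools and at 16.9 and 7.33 FPKM in the CharmeKO pools. CharmeKO pool 1 was the highest of the 5 pools and CharmeKO pool 2 was within the CharmeWT range. The log2 fold change was 0.54 ± 0.314 (adjusted p = 0.374). It was -0.17 without CharmeKO pool 1 and 1.02 without CharmeKO pool 2, so that its direction rested on CharmeKO pool 1.

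Slc2a4 (ENSMUSG00000018566, chromosome 11 from 69942539 to 69948188, minus strand) stood at 26.4, 36.7 and 25.1 FPKM in CharmeWT and at 28.7 and 31.4 FPKM in CharmeKO. Both CharmeKO pools were inside the CharmeWT range, and the log2 fold change was 0.03 ± 0.204 (adjusted p = 0.941). The gene is also expressed in fat cells, whose markers were highest in CharmeKO pool 2. Slc2a1 made up 21.7%, 21.4% and 23.1% of the summed FPKM of both transporters in the CharmeWT pools, 37.0% in CharmeKO pool 1 and 18.9% in CharmeKO pool 2. The 2 CharmeKO pools lay on opposite sides of the CharmeWT pools. The log2 ratio of Slc2a4 over Slc2a1 was 1.82 ± 0.0763 (SD, n = 3) in CharmeWT and 1.43 ± 0.941 (SD, n = 2) in CharmeKO, a difference of -0.39 (exact p = 0.7, 0.933 after adjustment) that was smaller than the spread of the CharmeKO pools. It was -1.05 without CharmeKO pool 2 and 0.28 without CharmeKO pool 1.

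Hk1 (ENSMUSG00000037012, chromosome 10 from 62268855 to 62379908, minus strand) encodes the hexokinase of brain, red cells and fetal heart. It was measured at 33.7, 48.0 and 34.0 FPKM in the CharmeWT pools and at 34.9 and 42.7 FPKM in the CharmeKO pools, all of the latter inside the CharmeWT range (log2 fold change 0.01 ± 0.213, adjusted p = 0.985). Hk2 (ENSMUSG00000000628, chromosome 6 from 82725025 to 82774454, minus strand), the insulin-responsive hexokinase of adult muscle, stood at 9.88, 11 and 9.54 FPKM in CharmeWT and at 13.5 and 8.23 FPKM in CharmeKO. Here the CharmeKO pools lay above and below all CharmeWT pools (log2 fold change 0.10 ± 0.223, adjusted p = 0.842). Hk1 made up 77.3%, 81.3% and 78.1% of the FPKM of the pair in CharmeWT and 72.2% and 83.8% in CharmeKO. The log2 ratio of Hk2 over Hk1 was -1.91 ± 0.186 (SD, n = 3) and -1.87 ± 0.707 (SD, n = 2), a difference of 0.03 (exact p = 1, 1 after adjustment) with no constant direction: it was -0.47 without CharmeKO pool 1 and 0.53 without CharmeKO pool 2.

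**Figure D3:**
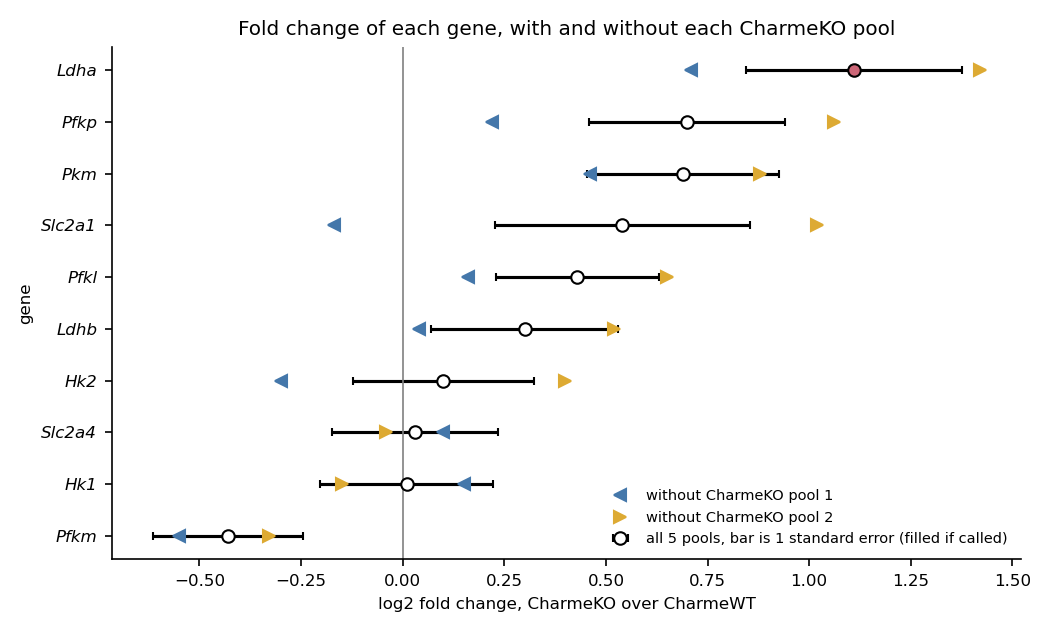
Log2 fold change, CharmeKO over CharmeWT, on the horizontal axis for each of the 10 genes: circles with bars of 1 standard error for all 5 pools (filled where called), left-pointing triangles without CharmeKO pool 1 and right-pointing triangles without CharmeKO pool 2. Without CharmeKO pool 1, Ldha falls to 0.71, Pfkp to 0.22 and Slc2a1 to -0.17, and Pfkm moves from -0.43 to -0.55.

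The 2 CharmeKO pools differed from each other in this set. Without CharmeKO pool 2, in which the salivary and adipose markers were highest, 6 of the 10 genes were called higher (Slc2a1, Pfkl, Pfkp, Ldha, Ldhb and Pkm), where 16.1% of all genes tested were called higher. Without CharmeKO pool 1, 0 of the 10 were called, where 3.06% of all genes tested were called higher. Each of these fits leaves 1 CharmeKO pool, which is assumed to vary as the CharmeWT pools do. Pfkm stayed below 0 in both (-0.55 and -0.33), and Ldha, Pkm and Pfkp stayed above 0.

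The rest of the pathway was read from 9 further lists with 76 genes, of which 70 were tested. In these, 2 genes were called higher and 2 lower, against 1.53% and 0.524% of all genes tested. Both CharmeKO pools were above every CharmeWT pool for 21 of the 70 genes and below for 7, against 17.8% and 18.2% of all genes tested. Among 11 other glycolytic enzymes tested, 2 were called higher: Pgk1, whose enzyme makes the first ATP of the pathway, and Eno1, the ubiquitous enolase. Pgk1 stood at 200, 242 and 158 FPKM in CharmeWT and at 607 and 315 FPKM in CharmeKO, with no overlap, a 2.31-fold rise (log2 fold change 1.21 ± 0.287, adjusted p = 0.0948). Eno1 stood at 71.2, 86.4 and 61.1 FPKM in CharmeWT and at 222 and 115 FPKM in CharmeKO, also with no overlap (log2 fold change 1.21 ± 0.276, adjusted p = 0.0836). As with Ldha, both calls were kept in 1 of the 5 fits that left out a pool, the one without CharmeKO pool 2, and the fold change without CharmeKO pool 1 was 0.66 for each on the log2 scale. With all 5 pools, the call of Pgk1 was also lost in the legacy form of the test (adjusted p = 0.107) and with the length and GC correction (0.13). Eno3, the muscle enolase, stood at 586 to 793 FPKM in CharmeWT and at 813 and 599 FPKM in CharmeKO (log2 fold change 0.02, adjusted p = 0.972). Gapdh, the most abundant of the list, was at 648 to 953 FPKM in CharmeWT and at 1580 and 1100 FPKM in CharmeKO (0.75, adjusted p = 0.226). Its log2 fold change was 0.99 without CharmeKO pool 2 and 0.47 without CharmeKO pool 1. With all 5 pools, Gapdh was called by DESeq2 (adjusted p = 0.0423) and by the likelihood ratio test (0.0905). Over the list, 9 of 11 log2 fold changes were above 0, the median was 0.45, and 7 of 11 genes had both CharmeKO pools above every CharmeWT pool, the position of 17.8% of all genes tested.

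The genes called lower both encode kinases that switch off pyruvate dehydrogenase, the entry of pyruvate into the mitochondrial citrate cycle. In their list of 11 tested genes, 7 rounded log2 fold changes were above 0 and 3 below, with a median of 0.20. Both CharmeKO pools were above every CharmeWT pool for 3 of the 11 and below for 2, against 17.8% and 18.2% of all genes tested. Pdk4, which is induced by fatty acids and fasting, was measured at 95.7, 81.2 and 109 FPKM in the CharmeWT pools and at 36.2 and 35.7 FPKM in the CharmeKO pools. The 2 CharmeKO pools were alike and far below the CharmeWT range, 2.65-fold lower (log2 fold change -1.41 ± 0.194, adjusted p = 0.0336). Pdk2 was measured at 117, 108 and 113 FPKM in CharmeWT and at 48.6 and 68.5 FPKM in CharmeKO, 1.92-fold lower and with no overlap (-0.94 ± 0.2, adjusted p = 0.0693). Without either CharmeKO pool both were still called; the call of Pdk4 was lost without CharmeWT pool 1 or 3, and that of Pdk2 without any 1 of the CharmeWT pools. Their relatives Pdk1 (log2 fold change 0.53) and Pdk3 (0.20) were not called, nor was Pdha1, the catalytic subunit of the complex, at 191 to 217 FPKM in CharmeWT and at 309 and 216 FPKM in CharmeKO (0.35, adjusted p = 0.398). Pdha1 was called without CharmeKO pool 2 (0.58, adjusted p = 0.0436) and was at 0.07 without CharmeKO pool 1.

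**Figure D4:**
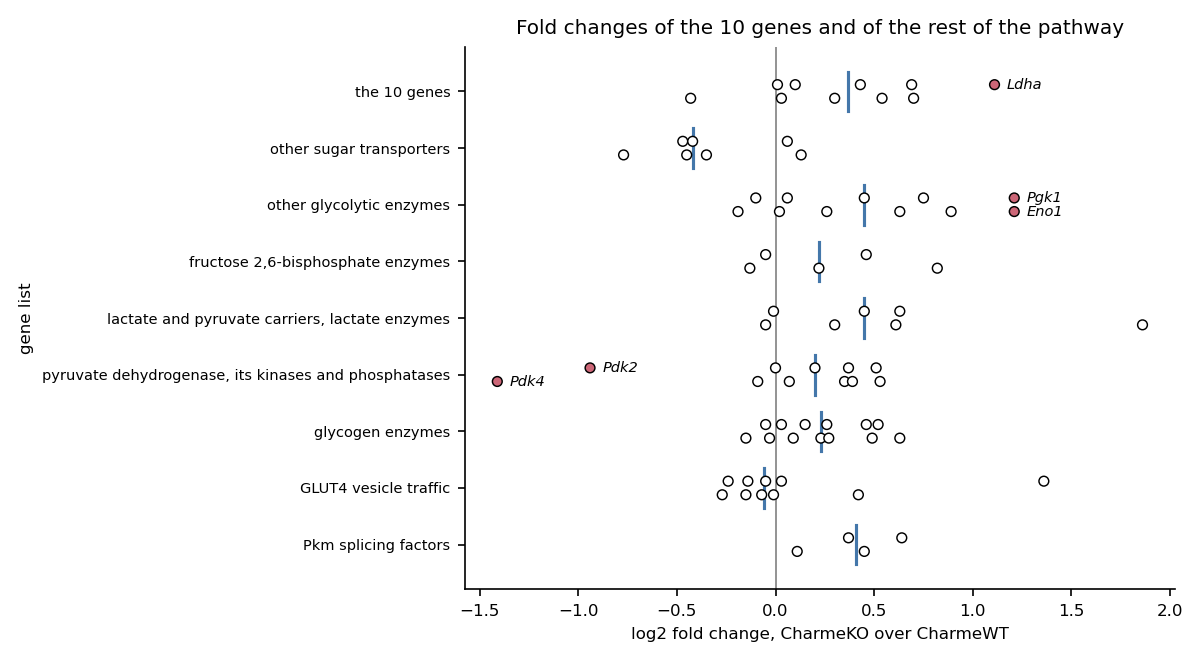
Log2 fold change, CharmeKO over CharmeWT, on the horizontal axis for the 10 genes and for the tested genes of the further lists other than the hexokinases, 1 row a list, each circle 1 gene (filled and named where called) and each blue line the median of the list. Ldha, Pgk1 and Eno1 are the called genes on the right, and Pdk4 and Pdk2 those on the left at -1.41 and -0.94.

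The carriers of lactate and pyruvate, with the D-lactate dehydrogenase Ldhd, made a list of 7 genes, 0 of them called. Their median log2 fold change was 0.45, with both CharmeKO pools above every CharmeWT pool for 5 of 7, against 17.8% of all genes tested. Slc16a3, encoding the lactate exporter MCT4 of glycolytic muscle, stood at 2.14, 3.07 and 2.39 FPKM in CharmeWT and at 15.2 and 3.28 FPKM in CharmeKO. Its log2 fold change of 1.86 ± 0.482 (adjusted p = 0.117) fell to 0.38 without CharmeKO pool 1. It was 2.58 without CharmeKO pool 2. With all 5 pools, Slc16a3 was called by the likelihood ratio test (adjusted p = 0.00836) but not by DESeq2 (0.144). Bsg, the chaperone of these carriers and the most abundant of the list, was at 382 to 474 FPKM in CharmeWT and at 464 and 384 FPKM in CharmeKO.

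The other sugar transporters were low. Of 9, 7 were tested and 0 called, with 5 of 7 log2 fold changes below 0 and a median of -0.42. Both CharmeKO pools were below every CharmeWT pool for 4 of 7, against 18.2% of all genes tested. Slc2a8, the most abundant, stood at 5.10, 7.44 and 6.52 FPKM in CharmeWT and at 2.78 and 4.63 FPKM in CharmeKO (-0.77, adjusted p = 0.204). It was -0.45 without CharmeKO pool 1 and was called without CharmeKO pool 2 (-1.20, adjusted p = 0.0139). Slc2a3, encoding the GLUT3 carrier known from neurons, was at 0.623 to 0.879 FPKM in all pools. Hk3, a further hexokinase gene, was at 0.261 to 0.448 FPKM in all pools, and its adjusted p was 0.999.

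Among 5 genes that set the level of fructose 2,6-bisphosphate, the activator of phosphofructokinase, 0 were called. Both CharmeKO pools were above every CharmeWT pool for 1 of the 5 and below for 0, against 17.8% and 18.2% of all genes tested. Tigar, the most abundant, was at 7.26 to 9.60 FPKM in CharmeWT and at 7.35 and 7.46 FPKM in CharmeKO. Pfkfb3 was at 0.757 to 1.20 FPKM in CharmeWT and at 0.871 and 2.36 FPKM in CharmeKO (log2 fold change 0.82, adjusted p = 0.295), higher in CharmeKO pool 2 alone. It was called without CharmeKO pool 1 (1.35, adjusted p = 0.016) and was at -0.10 without CharmeKO pool 2. The 13 glycogen genes gave 0 calls, with 10 of 13 log2 fold changes above 0 and a median of 0.23. Both CharmeKO pools were above every CharmeWT pool for 2 of the 13 and below for 0. Gyg, which primes the glycogen particle, was at 162 to 182 FPKM in CharmeWT and at 243 and 175 FPKM in CharmeKO (0.27, adjusted p = 0.484). It was called without CharmeKO pool 2 (0.48, adjusted p = 0.0635) and was at 0.01 without CharmeKO pool 1. Gbe1, the branching enzyme, had both CharmeKO pools, 16.7 and 14.0 FPKM, above the CharmeWT range of 8.68 to 11.3 FPKM (0.63, adjusted p = 0.15). With all 5 pools, Gbe1 was called by DESeq2 (adjusted p = 0.0644) and by the likelihood ratio test (0.0732). Its log2 fold change was 0.74 without CharmeKO pool 2 and 0.50 without CharmeKO pool 1. With the length and GC correction it was 0.36 and not called.

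The 10 genes of GLUT4 vesicle traffic also gave 0 calls, and their median log2 fold change was -0.06. Both CharmeKO pools were above every CharmeWT pool for 0 of the 10 and below for 1, against 17.8% and 18.2% of all genes tested. Rab10, the most abundant and the GTPase that carries GLUT4 vesicles to the surface in fat cells, was at 33.1 to 37.4 FPKM in CharmeWT and at 35.3 and 32.5 FPKM in CharmeKO (-0.07, adjusted p = 0.853). Trarg1, a vesicle protein of fat and muscle, was at 0.497 to 0.995 FPKM in CharmeWT, at 0.450 FPKM in CharmeKO pool 1 and at 3.59 FPKM in CharmeKO pool 2, the pool with the adipose markers. Its log2 fold change was 1.36 with all pools, -0.87 without CharmeKO pool 2 and 2.13 without CharmeKO pool 1, where it was called (adjusted p = 0.0024).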

How the data were processed

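Paired-end reads of 150 nucleotides from strand-specific polyA libraries were trimmed with cutadapt and aligned to mm10 (GRCm38) with STAR by the authors, who kept reads of at least 35 nucleotides. The deposited counts are whole numbers of fragments per gene of Ensembl release 87, without normalization, for 49671 genes. A deposited FPKM table was not used because its values carry decimal commas. FPKM was computed from the counts with TMM library sizes and the exon lengths of GENCODE M21 on GRCm38, to which 49411 genes matched. The TMM factor was 0.845 in CharmeKO pool 1 and 1.02 to 1.09 in the other pools.

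The 14880 genes that reached 10 counts in 2 or more pools were normalized by TMM and tested for genotype with the quasi-likelihood test of edgeR 4.0.16 in R 4.3.3, in place of the likelihood ratio test of the study, with Benjamini-Hochberg adjustment over all of them. Calls needed an adjusted p below 0.1 and, in either genotype, a mean of 1 FPKM or more. The standard error is the absolute log2 fold change over the square root of F. Pools are separate samples, and p-values measure the spread between these pools only. Isozyme ratios were compared with an exact permutation test. The scripts were tested on simulated data. Alternatives were the likelihood ratio test, DESeq2 1.42.0, the legacy test, RLE normalization, no filter, other thresholds, the replicate number as a block, a length and GC correction with splines of 4 degrees of freedom, and each pool left out in turn.

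The 10 genes and all gene lists were chosen with earlier results of these data known. From each further list, the most abundant gene and every called gene, or the gene with the lowest p, were named; Slc2a3, Eno3, Pdk1 and Pdk3 were named after their values were seen. For 1 list, the gene with the lowest p is not reported here. Promoter windows were the 250 bases before the RefSeq start. Reads have no molecular identifiers. Ldha, Pkm, Gapdh and Pgk1 have processed pseudogenes, and the effect of reads shared with these was not tested.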

Additional observations from a re-analysis of the deposited data

How the results depend on the processing

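With the 5 pools, 305 genes were called, 227 higher and 78 lower. The edgeR likelihood ratio test called 933, DESeq2 1122, an adjusted p under 0.05 left 111, and fits that left out 1 pool called 0 to 4607: 2, 187 and 0 without CharmeWT pools 1, 2 and 3 (1315 genes at an unadjusted p under 0.05 without pool 3), 639 without CharmeKO pool 1 and 4607 without CharmeKO pool 2. Of the 10 genes, 1 was called (Ldha), 2 by the likelihood ratio test, 3 by DESeq2, 0 at an adjusted p under 0.05, 0 with the length and GC correction (Ldha 1.15, adjusted p = 0.111, edgeR), and 0 to 6 without 1 pool. The cause of these shifts was not tested, beyond the smaller number of pools. The labels do not say what shared replicate numbers stand for; with the number as a replicate block 210 genes and 0 of the 10 were called (Ldha 0.93, adjusted p = 0.131, edgeR; the calls of Pgk1 and Eno1 were lost too, at 0.156 and 0.145), and with the block and the length and GC correction 32 genes and 0 of the 10, with Pdk2 lost as well (adjusted p = 0.274, edgeR). In the block fit the log2 fold change of Slc2a4 was -0.05, of Hk1 -0.06 and of Hk3 0.01.

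Leaving out 1 pool moved the difference in log2 ratio from -1.05 to 0.28 for Slc2a4 over Slc2a1, from -0.47 to 0.53 for Hk2 over Hk1, from -1.11 to -0.73 for Pfkm over Pfkl plus Pfkp and from -0.92 to -0.68 for Ldhb over Ldha. Under the block, the length and GC correction, the ratio of group means and the basic exon length (added after the data were seen) each difference kept its direction, except Hk2 over Hk1 with the length and GC correction (-0.14). The deposited FPKM table, planned as a further source for the ratios, was not run.

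Directions close to 0 also turned for Hk1 with no filter (-0.02), for Hk3 with DESeq2 or RLE normalization (0.0), the length and GC correction (0.14) and both that and the block (0.20), and for Bsg with the correction (0.09) and with both (0.0). Without 1 pool, log2 fold changes ran from -0.17 to 1.02 for Slc2a1, -0.07 to 0.22 for Slc2a4, -0.15 to 0.20 for Hk1, -0.30 to 0.40 for Hk2, -0.16 to 0.23 for Hk3, -0.20 to 0.01 for Tigar, -0.10 to 1.35 for Pfkfb3, -0.15 to 0.12 for Bsg and -0.87 to 2.13 for Trarg1. No setting moved the median log2 fold change of all genes by over 0.1. With 3 pools against 2, a p that misses the threshold does not show that levels did not differ.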
